A study of Mus musculus with 24 samples.

Results

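Mitochondrial fatty acid beta-oxidation is described here through 9 listed enzymes in the epididymal white adipose tissue (eWAT) of chow-fed and high-fat diet-fed mice: *Cpt1a*, *Cpt1b*, *Cpt2*, *Acadvl*, *Acadl*, *Acadm*, *Etfdh*, *Hadha* and *Hadhb*. The genes were matched by symbol, and 8 of them were found among the 16730 genes of the count table. *Cpt1b*, the muscle form of the first transport enzyme, was not analysed here. The rule takes the enzymes by their place in the pathway and uses no measured value, and all 8 enzymes passed the filter on low counts, which kept 15020 genes.

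Long-chain fatty acids are bound to coenzyme A, handed to carnitine at the outer mitochondrial membrane, carried across the inner membrane and handed back to coenzyme A. Inside the matrix each turn of the cycle removes a pair of carbons as acetyl-CoA, and the first step passes its electrons through the electron transfer flavoprotein to ubiquinone. White adipocytes mostly store fatty acids and release them to other tissues, so their capacity to oxidize them is low beside that of liver, heart or brown fat, and the pathway's genes are known targets of the PPAR nuclear receptors and of the coactivator PGC-1α.

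RNA was taken from whole epididymal fat pads of 24 adult male mice, labelled as gonadal fat (gWAT), and read at the 3′ ends of transcripts with QuantSeq. The design crosses diet with genotype, with 6 mice in each of 4 groups. *Lama4* encodes the laminin α4 chain of the basement membrane that surrounds adipocytes, and the study asked how its loss from adipocytes changes the fat pad on either diet. All mice carried *Lama4* alleles whose exon 3 is flanked by loxP sites, and the strain was labelled LFKO in every group. *Lama4* fl/fl mice are the floxed littermate controls without Cre, and *Lama4* AKO mice carry in addition a Cre driven by the adiponectin promoter, which acts in adipocytes, so that endothelial, stromal and immune cells of the pad keep the gene. Chow was diet 5015 and the high-fat diet (HFD) held 45% fat, each fed for 20 weeks before collection. By the study's figure legends chow ran from weaning to 24 weeks of age, and HFD from 6 weeks to a later age. Age at collection thus goes with diet, and a difference between diets cannot be told apart from one of age. The pad is a mixture of cells, and in bulk RNA fewer cells of a type and less RNA per cell cannot be told apart. No label ties mice to a litter, cage or day. The tests treat the mice as independent, and this could not be checked.

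Libraries held 5579590 to 18764516 counts. *Lama4* itself ranged from 41.2 to 196 CPM (counts scaled to a common library total by trimmed mean of M-values, TMM) in chow-fed *Lama4* fl/fl, 64.2 to 133 in chow-fed *Lama4* AKO, 32.3 to 135 in HFD-fed *Lama4* fl/fl and 36.4 to 92.5 in HFD-fed *Lama4* AKO mice, and it was not called between genotypes on either diet. The study reported lower *Lama4* by quantitative PCR in eWAT of chow-fed *Lama4* AKO mice. Here the medians on chow were 112.9 CPM in *Lama4* AKO and 91.6 in *Lama4* fl/fl mice. QuantSeq reads the 3′ ends of transcripts and the deleted part is exon 3, but read positions on *Lama4* were not examined. These counts therefore do not check the deletion, and genotypes are taken from the labels. The first principal component of log2 CPM, with 45.8% of the variance, put HFD *Lama4* fl/fl replicates 3, 4 and 6 at -76.1 to -9.88, on the side of most chow-fed mice, and chow *Lama4* fl/fl replicate 3 (46.8) and chow *Lama4* AKO replicate 5 (22.1) on the side of most HFD-fed mice. Chow *Lama4* fl/fl replicate 2 (6.18) and chow *Lama4* AKO replicate 6 (2.95) also lay above 0 on this axis and were kept. The study set outlying libraries aside by principal component analysis without naming them in its methods, and earlier work on these counts inferred that they were these 5. The results on the enzymes are therefore given with all 24 libraries, which is the main analysis, and for the 19 others. The 5 were chosen by their expression, so p-values for the 19 are not independent of it. Those 19 leave 3 mice in the HFD-fed *Lama4* fl/fl group.

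The 3 stretches of promoter below are shown because the enzymes they belong to lead the results below: *Cpt1a* and *Acadm* are the members that edgeR called in both genotypes for the 19 libraries, in opposite directions, and *Hadhb* shares its start region with *Hadha*. Each holds 300 bases, from 250 before the start of the RefSeq transcript to 50 from it on, in the build GRCm38.p6. *Cpt1a* is at chr19:3323051-3323350 on the plus strand, *Acadm* at chr3:153944594-153944893 on the minus strand and *Hadhb* at chr5:30155003-30155302 on the plus strand. Capitals mark matches to the motifs listed after them.
Cpt1a: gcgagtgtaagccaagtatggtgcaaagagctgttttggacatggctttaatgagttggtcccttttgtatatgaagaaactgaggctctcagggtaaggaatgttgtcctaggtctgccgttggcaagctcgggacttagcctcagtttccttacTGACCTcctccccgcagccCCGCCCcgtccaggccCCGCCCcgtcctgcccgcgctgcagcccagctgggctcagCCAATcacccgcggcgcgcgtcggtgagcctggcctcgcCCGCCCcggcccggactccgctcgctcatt
Acadm: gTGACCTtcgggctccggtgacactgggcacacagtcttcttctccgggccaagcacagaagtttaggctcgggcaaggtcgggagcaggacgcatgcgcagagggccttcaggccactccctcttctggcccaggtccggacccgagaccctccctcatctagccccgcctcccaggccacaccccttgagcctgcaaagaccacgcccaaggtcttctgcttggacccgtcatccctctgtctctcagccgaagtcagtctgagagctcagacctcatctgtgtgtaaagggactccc
Hadhb: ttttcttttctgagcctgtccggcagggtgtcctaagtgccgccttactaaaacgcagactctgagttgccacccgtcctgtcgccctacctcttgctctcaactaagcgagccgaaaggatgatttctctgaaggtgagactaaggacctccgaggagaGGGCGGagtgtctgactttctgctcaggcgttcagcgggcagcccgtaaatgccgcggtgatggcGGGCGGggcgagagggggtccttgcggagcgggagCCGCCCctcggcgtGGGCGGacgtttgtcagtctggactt

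In all, 7 motifs were searched on both strands in the promoters of all 8 enzymes and in 32817 RefSeq promoters of the same length. The nuclear receptor half-site AGGTCA was found in 3 enzymes (*Cpt1a*, *Acadm* and *Acadvl*) and in 16.3% of all promoters. Its direct repeat with a base between, and the longer ERR element TCAAGGTCA, both of which contain the half-site, were found in none of the 8 and in 0.0396% and 0.424% of all promoters. The GC box GGGCGG was found in 6 enzymes and in 35.6% of promoters, the CCAAT box CCAAT in 2 (*Cpt1a* and *Etfdh*) and 37.4%, and the TATA box TATAAA and the E-box CACGTG in none of the 8, against 13.6% and 7.15%. A match is a run of letters and not a shown binding site, and the absence of one in these windows says nothing of sites elsewhere. *Hadha* and *Hadhb*, the subunits of 1 enzyme complex, lie head to head on opposite strands with starts 273 bases apart, and 228 bases of their windows are the same DNA. The only GC box of *Hadha* lies in that shared stretch and is also a match of *Hadhb*, so the 6 enzymes count this site for both.

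With all 24 libraries none of the 8 enzymes was called between diets or genotypes, beside 0.113% to 4.12% of all genes. In no pair of groups compared did the mice separate, beside 0.213% to 6.86% of all genes. With the 19 libraries, by edgeR, *Cpt1a*, which lets long-chain fatty acids into the oxidation route, was higher on HFD by 1.67-fold in *Lama4* fl/fl and 1.61-fold in *Lama4* AKO mice, and *Acadm*, the medium-chain dehydrogenase, was lower by 2.7-fold and 2.03-fold. *Hadhb* was lower by 1.5-fold when diets were compared over both genotypes. The limma-voom test on the same 19 libraries made these calls too, except that in *Lama4* fl/fl mice it called *Hadhb* and not *Cpt1a*. Of all genes, edgeR called 11.8% between diets in *Lama4* fl/fl mice, 15.7% in *Lama4* AKO mice and 21.2% over both genotypes. No enzyme was called between *Lama4* AKO and *Lama4* fl/fl mice on the same diet in either set of libraries, beside 0.113% to 0.565% of all genes by edgeR. To be called, a gene needed a fold of 1.5 or more, 2 CPM or more on average in its higher group and an unadjusted p no higher than 0.001. These thresholds are the study's, but the study applied them to limma-voom, and the values here come from edgeR's quasi-likelihood test unless limma-voom or DESeq2 is named. The p-values printed with single genes are adjusted over all genes tested, and a gene can fall short of a call by its unadjusted p or its fold.

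**Figure D1:**
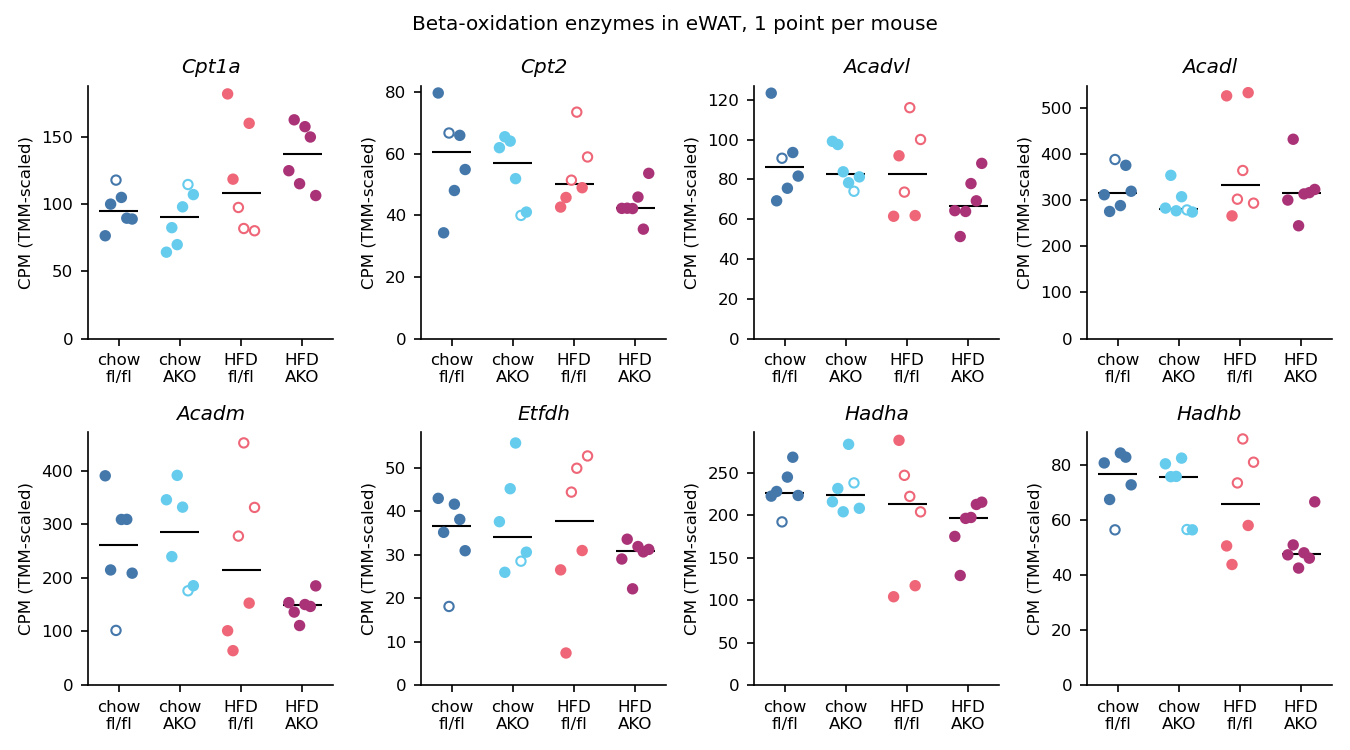
CPM (TMM-scaled, y axes from 0) of the 8 enzymes in each mouse, by group; bars are group medians and open circles are the 5 libraries left out of the 19-library set. The groups overlap for every enzyme, and the 6 HFD-fed *Lama4* AKO mice sit closer together than the HFD-fed *Lama4* fl/fl mice for *Acadm*, which ranged from 111 to 185 against 64.1 to 452 CPM.

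*Cpt1a* (ENSMUSG00000024900, chr19:3322334-3385733, plus strand, GRCm38) encodes the carnitine palmitoyltransferase of the outer mitochondrial membrane, the step that malonyl-CoA inhibits and that sets the rate of long-chain oxidation. Its lowest, median and highest values were 76.5, 94.9 and 118 CPM in chow-fed *Lama4* fl/fl, 64.3, 90.3 and 115 in chow-fed *Lama4* AKO, 80.3, 108 and 182 in HFD-fed *Lama4* fl/fl, and 107, 138 and 163 in HFD-fed *Lama4* AKO mice. All 6 HFD-fed *Lama4* AKO mice lay above the chow-fed *Lama4* AKO median, but the lowest of them lay below the highest chow-fed mouse. The log2 fold change of HFD over chow was 0.61 ± 0.20 (standard error) in *Lama4* AKO mice, with adjusted p = 0.0343, short of a call by its p, and 0.32 ± 0.20 in *Lama4* fl/fl mice, with adjusted p = 0.643. Averaged over both genotypes it was 0.46 ± 0.14 (adjusted p = 0.0378), short of a call by its fold of 1.38 and its p. In the 19-library set the 3 HFD-fed *Lama4* fl/fl mice had 182, 119 and 160 CPM, all above the 5 chow-fed controls at 76.5 to 105, and the log2 fold change was 0.74 ± 0.19 (adjusted p = 0.00754) in *Lama4* fl/fl and 0.69 ± 0.16 (adjusted p = 0.00299) in *Lama4* AKO mice, where the groups still overlapped. In *Lama4* fl/fl mice the call was lost with limma-voom on the same libraries (0.73, adjusted p = 0.00955). By edgeR *Cpt1a* was called in 9 of the 19 sets that each left out 1 more library in *Lama4* fl/fl mice, in 13 in *Lama4* AKO mice, and in all 19 when genotypes were averaged.

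*Cpt2* (ENSMUSG00000028607, chr4:107903981-107923610, minus strand) encodes the inner-membrane enzyme that returns the fatty acid from carnitine to coenzyme A, the other end of the same transport. Its values ran from 34.3 to 79.6 CPM in chow-fed *Lama4* fl/fl, 39.9 to 65.4 in chow-fed *Lama4* AKO, 42.6 to 73.4 in HFD-fed *Lama4* fl/fl and 35.5 to 53.6 in HFD-fed *Lama4* AKO mice, with medians of 60.4, 56.9, 50.1 and 42.2. The log2 fold change of HFD over chow was -0.12 ± 0.18 in *Lama4* fl/fl (adjusted p = 0.867) and -0.31 ± 0.18 in *Lama4* AKO mice (adjusted p = 0.197), and for the 19 libraries it was -0.30 ± 0.21 and -0.38 ± 0.18, with adjusted p-values of 0.291 and 0.0872. *Cpt1a* and *Cpt2* thus had fold changes of opposite sign in every diet comparison. The ratio of *Cpt1a* to *Cpt2* CPM, used only to compare mice, had medians of 1.7 (*Lama4* fl/fl) and 1.57 (*Lama4* AKO) on chow and of 2.25 and 3.2 on HFD, with ranges of 0.961 to 2.92, 1.04 to 2.87, 1.12 to 4.27 and 1.99 to 4.23, so that all groups overlapped.

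The acyl-CoA dehydrogenases take the first step of each cycle and differ in the chain length they prefer, from very long (*Acadvl*) over long (*Acadl*) to medium (*Acadm*). *Acadvl* (ENSMUSG00000018574, chr11:70010183-70015411, minus strand) ranged from 69.3 to 123 CPM in chow-fed *Lama4* fl/fl, 74.1 to 99.2 in chow-fed *Lama4* AKO, 61.5 to 116 in HFD-fed *Lama4* fl/fl and 51.3 to 88.1 in HFD-fed *Lama4* AKO mice. Its log2 fold change on HFD was -0.08 ± 0.17 in *Lama4* fl/fl (adjusted p = 0.906) and -0.31 ± 0.17 in *Lama4* AKO mice (adjusted p = 0.167), and no call was made for the 19 libraries either, where it was -0.31 ± 0.20 and -0.35 ± 0.16. The last 500 bases of *Acadvl* overlap *Dvl2* on the opposite strand, and those of *Hadha* overlap *Garem2*. Whether the counting used strand is not given in the sources used here, so reads of these pairs may not be told apart.

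*Acadl* (ENSMUSG00000026003, chr1:66830839-66863277, minus strand) was, beside *Cpt1a*, the other enzyme with fold changes above 0 in each diet comparison. Its lowest, median and highest values were 275, 315 and 388 CPM in chow-fed *Lama4* fl/fl, 274, 281 and 354 in chow-fed *Lama4* AKO, 266, 333 and 533 in HFD-fed *Lama4* fl/fl and 244, 315 and 432 in HFD-fed *Lama4* AKO mice. The log2 fold change on HFD was 0.22 ± 0.17 in *Lama4* fl/fl (adjusted p = 0.709) and 0.12 ± 0.17 in *Lama4* AKO mice (adjusted p = 0.613). HFD-fed *Lama4* fl/fl replicates 1 and 5 held the highest values of all mice, 526 and 533 CPM, and replicate 2 of the same group held 266. Over the 19 libraries, which keep these 3, the log2 fold change in *Lama4* fl/fl mice was 0.49 ± 0.20 (adjusted p = 0.0762). Without replicate 2 as well, which leaves only replicates 1 and 5 in that group, it was 0.75 (adjusted p = 0.00458). There *Acadl* was called, beside 13.4% of genes, in the 1 of 19 such sets where it was.

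*Acadm* (ENSMUSG00000062908, chr3:153922357-153944632, minus strand), the dehydrogenase that is deficient in the most common inherited defect of the pathway, had the largest standard deviation of log2 CPM over the 24 mice among the 8, followed by *Etfdh*. Its lowest, median and highest values were 102, 262 and 390 CPM in chow-fed *Lama4* fl/fl, 176, 286 and 391 in chow-fed *Lama4* AKO, 64.1, 215 and 452 in HFD-fed *Lama4* fl/fl and 111, 148 and 185 in HFD-fed *Lama4* AKO mice. The HFD-fed *Lama4* fl/fl group thus held both the lowest and the highest of the 24 mice, while 5 of the 6 chow-fed *Lama4* AKO mice lay above every HFD-fed *Lama4* AKO mouse. The log2 fold change on HFD was -0.92 ± 0.36 in *Lama4* AKO (adjusted p = 0.0666) and -0.15 ± 0.36 in *Lama4* fl/fl mice (adjusted p = 0.919). With only the *Lama4* AKO mice fitted, *Acadm* was called, beside 9.31% of genes. For the 19 libraries the 3 HFD-fed *Lama4* fl/fl mice had 101, 64.1 and 153 CPM, below the 209 to 390 of the chow-fed controls, and the log2 fold change was -1.43 ± 0.29 (adjusted p = 0.00183). In *Lama4* AKO mice it was -1.02 ± 0.23 (adjusted p = 0.00225), with groups that met without overlapping, 185.0 CPM in the highest HFD-fed and 185.3 in the lowest chow-fed mouse. *Acadm* was called in 18 of the 19 sets that left out 1 more library in each genotype and in all 19 when genotypes were averaged. All of these sets lack the 5 libraries chosen by their expression, so they cannot check that choice. The call was lost in *Lama4* fl/fl mice without HFD *Lama4* fl/fl replicate 2 (-1.17, adjusted p = 0.00782) and in *Lama4* AKO mice without chow *Lama4* AKO replicate 3 (-0.91, adjusted p = 0.00926).

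*Acadl* and *Acadm* had fold changes of opposite sign on HFD, and the ratio of their CPM separated the *Lama4* AKO groups where neither gene did. In *Lama4* AKO mice it ran from 0.708 to 1.59 on chow and from 1.75 to 3.17 on HFD, without overlap. In *Lama4* fl/fl mice it ran from 0.798 to 3.81 on chow and from 0.806 to 5.19 on HFD. HFD-fed *Lama4* fl/fl replicates 3, 4 and 6 had ratios of 1.09, 0.806 and 0.885 and replicates 1, 2 and 5 had 5.19, 4.15 and 3.49, and the chow-fed control with 3.81 was replicate 3. The ratio was formed after the values of both genes were seen, which favours a separation, and was not tested. With all 24 libraries 6.86% of single genes did not overlap between the *Lama4* AKO groups. The share of gene pairs whose ratio would separate them was not counted.

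*Etfdh* (ENSMUSG00000027809, chr3:79603788-79629500, minus strand) encodes the ubiquinone oxidoreductase through which the dehydrogenases' electrons enter the respiratory chain. Its lowest, median and highest values were 18.1, 36.6 and 43 CPM in chow-fed *Lama4* fl/fl, 25.9, 34.1 and 55.7 in chow-fed *Lama4* AKO, 7.37, 37.7 and 52.7 in HFD-fed *Lama4* fl/fl and 22.1, 30.9 and 33.6 in HFD-fed *Lama4* AKO mice. The log2 fold change on HFD was 0.03 ± 0.30 in *Lama4* fl/fl (adjusted p = 0.982) and -0.33 ± 0.30 in *Lama4* AKO mice (adjusted p = 0.426). With the 19 libraries it was -0.81 ± 0.32 in *Lama4* fl/fl mice (adjusted p = 0.0648), and -0.39 ± 0.26 in *Lama4* AKO mice (adjusted p = 0.231). The sign in *Lama4* fl/fl mice also turned with all 24 libraries by limma-voom, at -0.16. *Etfdh* was the least abundant member in counts, with 120 to 853 counts per library.

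*Hadha* and *Hadhb* encode the α and β subunits of the mitochondrial trifunctional protein, which carries out the last 3 steps on long chains. *Hadha* (ENSMUSG00000025745, chr5:30118304-30155162, minus strand) ranged from 192 to 268 CPM in chow-fed *Lama4* fl/fl, 204 to 283 in chow-fed *Lama4* AKO, 104 to 288 in HFD-fed *Lama4* fl/fl and 129 to 215 in HFD-fed *Lama4* AKO mice, with medians of 226, 224, 213 and 197. Its log2 fold change on HFD was -0.22 ± 0.20 in *Lama4* fl/fl (adjusted p = 0.745) and -0.30 ± 0.20 in *Lama4* AKO mice (adjusted p = 0.257). Leaving out the 5 libraries gave -0.49 ± 0.26 (adjusted p = 0.158) and -0.29 ± 0.21 (adjusted p = 0.283). The value in *Lama4* fl/fl mice rests on single libraries of its 3 HFD-fed mice: it was -0.23 without replicate 1 (adjusted p = 0.575), -0.28 without replicate 5 (adjusted p = 0.476) and -1.10 without replicate 2 (adjusted p = 0.000637), the 1 of the 19 sets in which *Hadha* was called there, beside 13.4% of genes. Averaged over genotypes *Hadha* was -0.69 without that library (adjusted p = 0.000133) and was called, beside 21.7% of genes, again in 1 of the 19 sets.

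*Hadhb* (ENSMUSG00000059447, chr5:30155248-30184593, plus strand) ranged from 56.4 to 84.3 CPM in chow-fed *Lama4* fl/fl, 56.4 to 82.4 in chow-fed *Lama4* AKO, 43.8 to 89.4 in HFD-fed *Lama4* fl/fl and 42.5 to 66.5 in HFD-fed *Lama4* AKO mice, with medians of 76.7, 75.7, 65.7 and 47.7. The median of the HFD-fed *Lama4* AKO mice lay below every chow-fed mouse, and their highest value, in replicate 6, lay within the chow-fed range. The log2 fold change on HFD was -0.50 ± 0.17 in *Lama4* AKO (adjusted p = 0.0357) and -0.17 ± 0.16 in *Lama4* fl/fl mice (adjusted p = 0.778). In the 19-library set it was -0.56 ± 0.13 in *Lama4* AKO (adjusted p = 0.00262) and -0.61 ± 0.16 in *Lama4* fl/fl mice (adjusted p = 0.00811), each just short of a call by edgeR, the first by its fold of 1.48 and the second by its p. With limma-voom the value in *Lama4* fl/fl mice passed (-0.62, adjusted p = 0.00642) and that in *Lama4* AKO mice did not (-0.56, adjusted p = 0.00251). Averaged over genotypes *Hadhb* was called by both (-0.59 ± 0.10 by edgeR, adjusted p = 0.000158), close to the fold threshold, and by edgeR in 7 of the 19 sets that left out 1 more library, with log2 fold changes of -0.64 to -0.54. The 3 HFD-fed *Lama4* fl/fl mice of that set had 50.5, 43.8 and 58 CPM, below the 67.4 to 84.3 of their chow-fed controls.

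The subunits did not keep 1 ratio across mice. *Hadha* over *Hadhb* CPM ran from 2.76 to 3.41 in chow-fed *Lama4* fl/fl, 2.69 to 4.21 in chow-fed *Lama4* AKO and 2.53 to 4.62 in HFD-fed *Lama4* AKO mice. On HFD, *Lama4* fl/fl replicates 1 and 5 had the lowest ratios of all, 2.06 and 2.02, and replicate 2 the highest, 6.58. Replicate 2 held the highest *Hadha* (288 CPM) and the lowest *Acadm* (64.1) and *Etfdh* (7.37) of the 24 mice. Its library held 16158030 counts, within the range of the others.

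**Figure D2:**
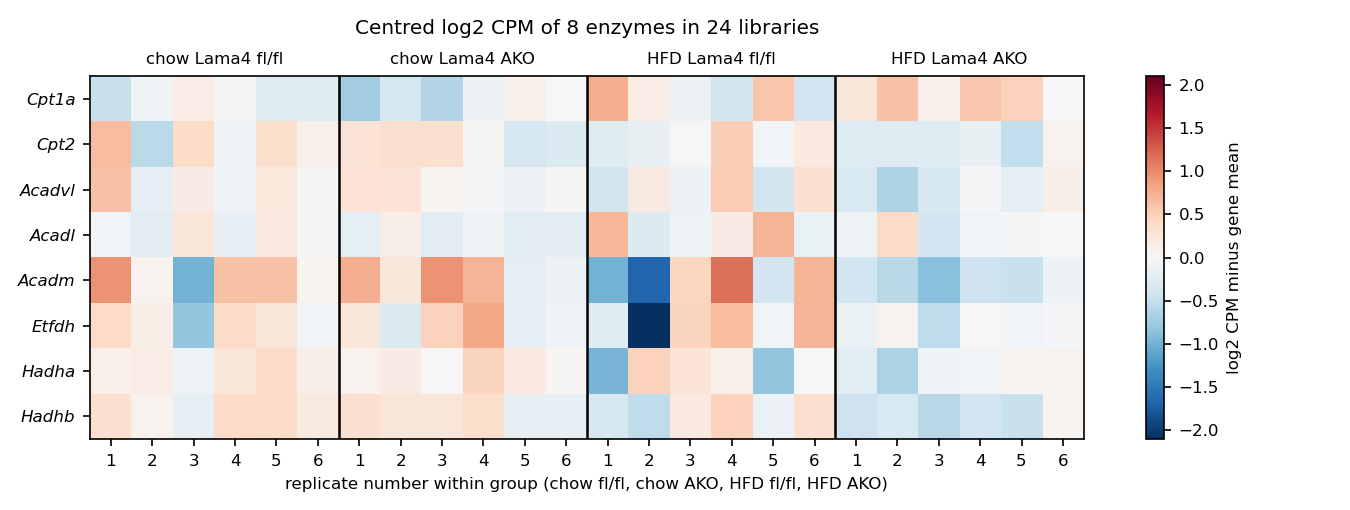
Log2 CPM of each enzyme minus its mean over the 24 libraries (colour), by replicate number within the 4 groups. *Acadm* and *Etfdh* vary most, and the most negative value is that of *Etfdh* in HFD-fed *Lama4* fl/fl replicate 2, at -2.1.

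Set against all genes, the 8 enzymes had no call with 24 libraries in any of the 6 comparisons with edgeR, and none with DESeq2 or limma-voom. Of all genes tested, 0.173% were called between diets in *Lama4* fl/fl mice, 4.12% in *Lama4* AKO mice and 2.22% over both genotypes. At an unadjusted p under 0.05 there were 0, 3 and 3 enzymes in these comparisons with edgeR, against 9.01%, 39.8% and 35.5% of all genes, while DESeq2 gave the same counts and limma-voom gave 0, 3 and 4. The 3 in *Lama4* AKO mice were *Cpt1a*, *Hadhb* and *Acadm*, a share of the 8 close to that of all genes. Groups that did not overlap were found for 0 enzymes, against 0.213% of genes between diets in *Lama4* fl/fl and 6.86% in *Lama4* AKO mice. The median log2 fold change of the 8 was -0.10 in *Lama4* fl/fl and -0.31 in *Lama4* AKO mice, beside -0.0081 and -0.0031 over all genes tested, and 5 and 6 of the 8 lay below 0.

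Over the 19 libraries edgeR called 2 enzymes between diets in each genotype, *Cpt1a* higher and *Acadm* lower, and 3 over both genotypes, with *Hadhb* lower as well. Of the 14863 genes tested, 11.8% (5.49% higher and 6.28% lower) were called in *Lama4* fl/fl mice, 15.7% (6.12% and 9.57%) in *Lama4* AKO mice and 21.2% (8.85% and 12.3%) over both genotypes. The counts by limma-voom were also 2, 2 and 3, beside 12.4%, 15.9% and 21.5% of genes, but the 2 in *Lama4* fl/fl mice were *Acadm* and *Hadhb*. At an unadjusted p under 0.05 there were 5, 5 and 8 enzymes by edgeR, beside 41.4%, 49.2% and 57.8% of genes, and 5, 4 and 7 by limma-voom, beside 42.8%, 49.3% and 58.7%. Of the 8, *Cpt1a* was higher and *Acadm* and *Hadhb* lower without overlap in *Lama4* fl/fl mice, and *Acadm* lower in *Lama4* AKO mice, where 29.3% and 16.7% of genes did not overlap. The median log2 fold change of the enzymes was -0.40 in *Lama4* fl/fl and -0.37 in *Lama4* AKO mice, beside -0.031 and -0.0044 over all genes. When 1 more library was left out in turn, 1 to 3 enzymes were called in *Lama4* fl/fl mice and 2 to 3 over both genotypes. In *Lama4* AKO mice 0 to 3 were called, and the 0 came without chow *Lama4* AKO replicate 3.

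**Figure D3:**
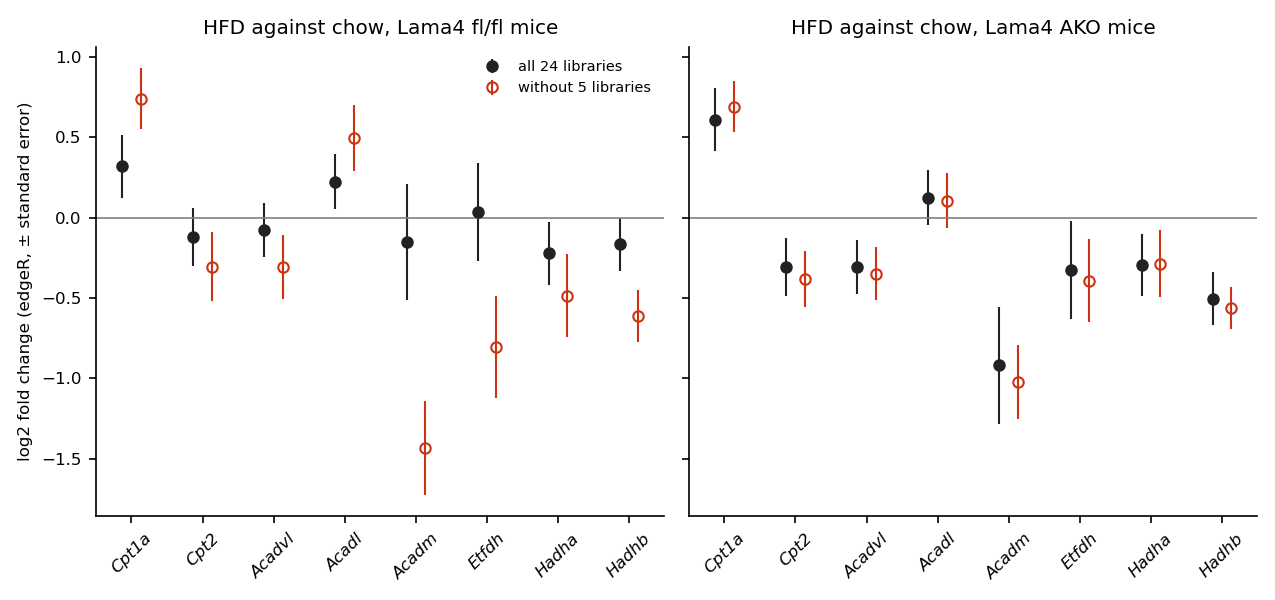
Log2 fold change of HFD over chow (edgeR, bars are standard errors) of the 8 enzymes in *Lama4* fl/fl (left) and *Lama4* AKO mice (right), with all 24 libraries (filled) and without 5 (open). Leaving out the 5 moved the values in *Lama4* fl/fl mice, such as *Acadm* from -0.15 to -1.43, more than those in *Lama4* AKO mice, from -0.92 to -1.02.

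The comparison of genotypes asks whether loss of laminin α4 from adipocytes changed the enzymes on either diet. On chow the log2 fold changes of *Lama4* AKO over *Lama4* fl/fl ran from -0.14 ± 0.17 for *Acadl* to 0.12 ± 0.36 for *Acadm*, with adjusted p-values of 0.964 to 0.999, and no enzyme was called or had groups without overlap, beside 0.113% of genes called and 0.26% without overlap. None had an unadjusted p under 0.05 with edgeR, DESeq2 or limma-voom, beside 5.85% of genes with edgeR. On HFD 7 of the 8 had values below 0, from -0.07 ± 0.20 for *Hadha* to -0.64 ± 0.36 for *Acadm*, and *Cpt1a* had 0.18 ± 0.20. *Hadhb* alone had an unadjusted p under 0.05 (-0.39 ± 0.17, adjusted p = 0.302), and none was called, beside 0.173% of genes called, 0.533% without overlap and 14.8% at an unadjusted p under 0.05. For the 19 libraries the sign on HFD turned for *Acadm* (0.47 ± 0.27, adjusted p = 0.562), *Etfdh* (0.46 ± 0.31, adjusted p = 0.639), *Hadha* (0.14 ± 0.24, adjusted p = 0.905) and *Cpt1a* (-0.17 ± 0.18, adjusted p = 0.814), and by edgeR *Acadl* alone had an unadjusted p under 0.05 (-0.46 ± 0.20, adjusted p = 0.382). By limma-voom *Acadm* (0.54) and *Etfdh* (0.69), each with adjusted p = 0.413, had one instead, and *Acadl* (-0.41, adjusted p = 0.447) did not. None was called on HFD or chow by edgeR or limma-voom, beside 0.565% and 0.209% of genes with edgeR, and the genotypes overlapped for all 8, beside 4.61% and 1.13% of genes without overlap. With an unadjusted p under 0.05 there were 1 enzyme on HFD and 0 on chow by edgeR, beside 11.1% and 8.5% of genes, and 2 and 0 by limma-voom, beside 11.8% and 8.38%. When replicate 2 of the HFD-fed *Lama4* fl/fl mice was left out as well, which leaves 2 mice in that group, 2 enzymes were called on HFD, *Hadha* higher in *Lama4* AKO mice (log2 fold change 0.76, adjusted p = 0.0413) and *Acadl* lower (-0.72, adjusted p = 0.0412), beside 2.04% of genes.

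The interaction of diet and genotype asks whether the diet difference itself differed between genotypes. With 24 libraries it ran from -0.77 ± 0.51 for *Acadm* (adjusted p = 0.438) to 0.29 ± 0.28 for *Cpt1a* (adjusted p = 0.586). No enzyme was called, beside 0.386% of genes, and none had an unadjusted p under 0.05 with edgeR, DESeq2 or limma-voom, beside 15.6% of genes with edgeR. That *Acadm* or *Hadhb* had a larger diet difference in *Lama4* AKO than in *Lama4* fl/fl mice was thus not shown. With the 19 libraries the interaction of *Acadm* was 0.41 ± 0.36 and that of *Cpt1a* -0.05 ± 0.25, and again no enzyme was called, beside 0.68% of genes, or had an unadjusted p under 0.05, beside 12.2%.

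The other genes of the pathway were followed through 8 lists. With 24 libraries edgeR called 0.173% of all genes between diets in *Lama4* fl/fl mice, 4.12% in *Lama4* AKO mice and 2.22% over both genotypes. With the 19 libraries these shares were 11.8%, 15.7% and 21.2%. Of the 14 other genes of mitochondrial beta-oxidation, which carry the remaining transport, chain-length and auxiliary steps, 13 had a log2 fold change below 0 on HFD in *Lama4* AKO mice with all 24 libraries, with a median of -0.44, and 2 were called. *Acad9*, a dehydrogenase that also helps to assemble respiratory complex I, was lower (-1.01 ± 0.24, adjusted p = 0.0153), and *Acot2*, the matrix thioesterase that frees long-chain fatty acids from coenzyme A, was higher (1.02 ± 0.27, adjusted p = 0.0207). In *Lama4* fl/fl mice 11 of the 14 lay below 0, with a median of -0.13. By edgeR none was called or had an unadjusted p under 0.05, beside 9.01% of all genes at that p.

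In the 19-library set 6 of the 14 were called over both genotypes, beside 21.2% of all genes. The carnitine carrier *Slc25a20*, which lies between *Cpt1a* and *Cpt2* in the route, was lower (-0.61 ± 0.09, adjusted p = 4.61e-05), as were the enoyl-CoA hydratase *Echs1* (-0.94 ± 0.17, adjusted p = 0.000204) and *Etfa*, a subunit of the electron transfer flavoprotein upstream of *Etfdh* (-0.95 ± 0.19, adjusted p = 0.000433). *Acot2* was higher (1.06 ± 0.16, adjusted p = 4.1e-05). The median of the 14 was -0.53, and 1 was called higher and 5 lower, of which *Acadsb* and *Eci1* complete the list.

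Fatty acids enter the route after activation, and the activation list held 9 of 10 genes in the table, 8 of them tested. *Acss1*, the mitochondrial acetyl-CoA synthetase, was higher on HFD in *Lama4* AKO mice with 24 libraries (0.97 ± 0.24, adjusted p = 0.0179), and *Acsl4*, which favours arachidonic acid, was called between genotypes on HFD (0.59 ± 0.15 higher in *Lama4* AKO, adjusted p = 0.291). Over the 19 libraries 5 were called over both genotypes, beside 21.2% of all genes. *Acss1* (0.95 ± 0.13) and *Acsl5* (0.60 ± 0.11) were higher, and *Acsl1* (-1.02 ± 0.17), the main long-chain synthetase of adipocytes, and the cytosolic *Acss2* (-1.16 ± 0.23) were lower, with adjusted p-values of 2.19e-05 to 0.000513, as was *Acsl3*. *Acsl4* was not called between genotypes for the 19 libraries.

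Malonyl-CoA, made by acetyl-CoA carboxylase, is the inhibitor of the *Cpt1a* step, and AMP-activated kinase restrains that enzyme. None of the 8 genes of this list was called with 24 libraries in any of the 6 comparisons. Those with the lowest p-values over both genotypes were *Prkab2* (0.23 ± 0.08, adjusted p = 0.0615), *Acacb* (-0.89 ± 0.35, adjusted p = 0.0786) and *Prkaa2* (-0.53 ± 0.26, adjusted p = 0.138). There edgeR counted 3 at an unadjusted p under 0.05, beside 35.5% of all genes. For the 19 libraries 2 of the 8 were called over both genotypes, beside 21.2% of all genes. *Prkaa2*, the kinase subunit α2, was lower (-1.03 ± 0.23, adjusted p = 0.00134), as was *Acaca*, the cytosolic carboxylase.

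The peroxisomal route shortens very long and branched chains. With 24 libraries 2 of its 14 genes were called higher on HFD in *Lama4* AKO mice, *Acox3*, an oxidase of branched-chain acyl-CoA (1.04 ± 0.23, adjusted p = 0.0136), and *Decr2*, a dienoyl-CoA reductase (0.73 ± 0.18, adjusted p = 0.0179), and *Acox3* was also called over both genotypes (0.69 ± 0.16, adjusted p = 0.0229). Of all genes, 4.12% were called in *Lama4* AKO mice and 2.22% over both genotypes. The list's median in *Lama4* AKO mice was -0.26, since 10 of the 14 lay below 0. With the 19 libraries *Acox3* (1.04 ± 0.12) and *Decr2* (0.67 ± 0.14) were higher over both genotypes and *Abcd2* (-1.55 ± 0.26), *Pex11a* (-0.98 ± 0.20) and *Scp2* were lower. Of all genes, 21.2% were called in that comparison.

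Among 16 regulators, *Nr2f2* (COUP-TFII), a nuclear receptor, was the 1 gene called with 24 libraries, lower on HFD in *Lama4* AKO mice (-0.80 ± 0.20, adjusted p = 0.0174). *Ppargc1a* and *Ppara*, whose products drive the pathway's genes in liver and muscle, had log2 fold changes of -0.97 ± 0.34 (adjusted p = 0.06) and -1.24 ± 0.46 (adjusted p = 0.0692) over both genotypes and were not called. In the 19-library set 4 of the 16 were called over both genotypes, all lower, beside 21.2% of all genes. They were *Ppargc1a* (-1.87 ± 0.28, adjusted p = 4.89e-05), *Ppara* (-2.39 ± 0.46, adjusted p = 0.000337), *Nrip1* (-1.38 ± 0.23, adjusted p = 0.000124), a corepressor of the pathway's genes, and *Nr2f2* (-0.65 ± 0.14, adjusted p = 0.00105). *Ppard*, the PPARδ receptor, went the other way: it was called higher in *Lama4* fl/fl mice of that set (0.85 ± 0.22, adjusted p = 0.00735) and not over both genotypes (0.48 ± 0.14, adjusted p = 0.00967).

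Of 9 PPAR targets outside the pathway none was called with 24 libraries. *Fabp4*, *Ucp2* and *Plin2* had the lowest p-values over both genotypes, with log2 fold changes of -0.77 ± 0.26, 0.69 ± 0.24 and 0.71 ± 0.25 and adjusted p-values of 0.054, 0.0587 and 0.0612. Over the 19 libraries *Plin2*, a lipid droplet coat protein (1.21 ± 0.20, adjusted p = 9.1e-05), and *Ucp2* (1.08 ± 0.22, adjusted p = 0.000547) were higher and *Fabp4*, the adipocyte fatty acid-binding protein (-1.41 ± 0.24, adjusted p = 0.000118), was lower. These calls over both genotypes, 2 higher and 1 lower of the 9, stood beside 8.85% and 12.3% of all genes called higher and lower.

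The last lists serve as a view of mitochondria at large. None of the 16 genes of the tricarboxylic acid cycle and none of the 11 genes of the mitochondrial membrane and import was called with 24 libraries in any of the 6 comparisons by edgeR. Over both genotypes 3 and 2 of them had an unadjusted p under 0.05, beside 35.5% of all genes. Their median log2 fold changes over both genotypes were -0.08 and 0.01, beside -0.21 for the 8 enzymes and -0.31 for the 14 other beta-oxidation genes. The genes with the lowest p-values were *Idh3b* (0.38 ± 0.12, adjusted p = 0.0441), *Dlst* (0.21 ± 0.08, adjusted p = 0.0846) and *Mdh2* (-0.33 ± 0.14, adjusted p = 0.0964) in the cycle and *Timm44* (-0.46 ± 0.13, adjusted p = 0.0344), *Tomm40* (0.38 ± 0.14, adjusted p = 0.0748) and *Phb* (-0.19 ± 0.12, adjusted p = 0.233) in the other. For the 19 libraries 1 gene of each list was called over both genotypes, beside 21.2% of all genes. These were the succinyl-CoA ligase subunit *Suclg2* (-0.98 ± 0.21, adjusted p = 0.000798) and the import motor subunit *Timm44* (-0.75 ± 0.11, adjusted p = 4.78e-05). The medians of the 2 lists were -0.13 and 0.02, beside -0.37 for the 8 enzymes and -0.53 for the 14. The lists were compared by counts and medians and the difference between them was not tested.

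**Figure D4:**
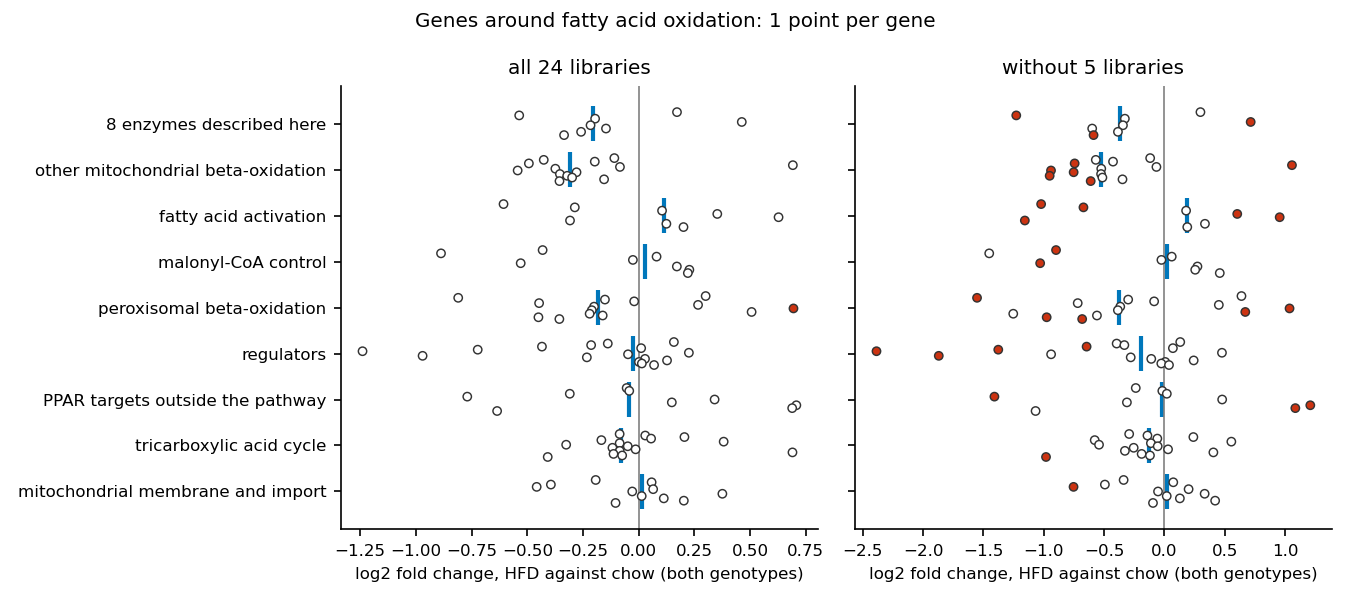
Log2 fold change of HFD over chow, averaged over both genotypes, of each tested gene in the 8 enzymes and 8 surrounding lists, with all 24 libraries (left) and without 5 (right); red points passed the call and blue bars are list medians. With 24 libraries *Acox3* is the only gene called, beside 2.22% of all genes. Without 5 each list holds at least 1 call, beside 21.2% of all genes.

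The mean profile of the 8 enzymes over the 24 libraries was closest to that of *Abcd3*, which imports acyl-CoA into peroxisomes. The root mean square difference between the centred log2 CPM of *Abcd3* and the mean profile was 0.098 over 24 libraries, against a standard deviation of the mean profile of 0.217, among 13250 genes compared. *Wls* (0.131), *Rtn3* (0.131), *Tgoln1* (0.134) and *Zbtb38* (0.135) followed, and for the 19 libraries *Abcd3* was again the closest (0.0892), with 4 of the 5 genes the same. Of the members themselves *Hadhb* lay closest to their mean (0.158) and *Cpt1a* farthest (0.563), and *Acadm* lay at 0.517. *Abcd3* was not called between diets in either set of libraries (-0.15 over both genotypes with 24, adjusted p = 0.202, and -0.30 with 19, adjusted p = 0.00488).

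Levels of markers of the cell types in the pad varied between mice of 1 group. All 10 adipocyte markers were in the table and none was at 0 in all mice. Their summed level was 20400 to 53900 CPM in chow-fed *Lama4* fl/fl, 15500 to 42500 in chow-fed *Lama4* AKO, 9340 to 48500 in HFD-fed *Lama4* fl/fl and 9080 to 25000 in HFD-fed *Lama4* AKO mice. On HFD in *Lama4* AKO mice all 10 had log2 fold changes below 0, with a median of -1.12. Of these 1 was called, *Lep* (-2.10 ± 0.51, adjusted p = 0.017), beside 4.12% of all genes. *Fabp4* and *Pparg* of this list also stand in the lists of PPAR targets and of regulators. The 3 HFD-fed *Lama4* fl/fl mice left out of the 19-library set had adipocyte sums of 24400, 48500 and 40800 CPM with *Hadhb* at 73.4, 89.4 and 80.9, and the 3 kept had sums of 9340, 11200 and 14900 with *Hadhb* at 50.5, 43.8 and 58. The other enzymes did not all follow these sums: the 3 kept mice had *Hadha* at 104, 288 and 117 CPM and *Acadl* at 526, 266 and 533, and the 3 left out had *Hadha* at 247, 222 and 204 and *Acadl* at 302, 364 and 293. The 6 brown and beige markers summed to 28.4 to 105 CPM.

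The 9 macrophage markers had fold changes of the opposite sign on HFD in *Lama4* AKO mice. Their sums were 1370 to 9900 CPM in chow-fed *Lama4* fl/fl, 2030 to 7870 in chow-fed *Lama4* AKO, 2040 to 11500 in HFD-fed *Lama4* fl/fl and 6380 to 12200 in HFD-fed *Lama4* AKO mice, and none of the 9 was at 0 in all mice. On HFD in *Lama4* AKO mice all 9 had log2 fold changes above 0, with a median of 1.17 and no call by edgeR. Of the 9, 5 had an unadjusted p under 0.05, beside 39.8% of all genes. With the 19 libraries 7 adipocyte markers were called lower and 3 macrophage markers higher over both genotypes, with medians of -1.36 and 1.09. Of all genes, 12.3% were called lower and 8.85% higher. The part of the cell types in the enzymes' values was not tested.

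**Figure D5:**
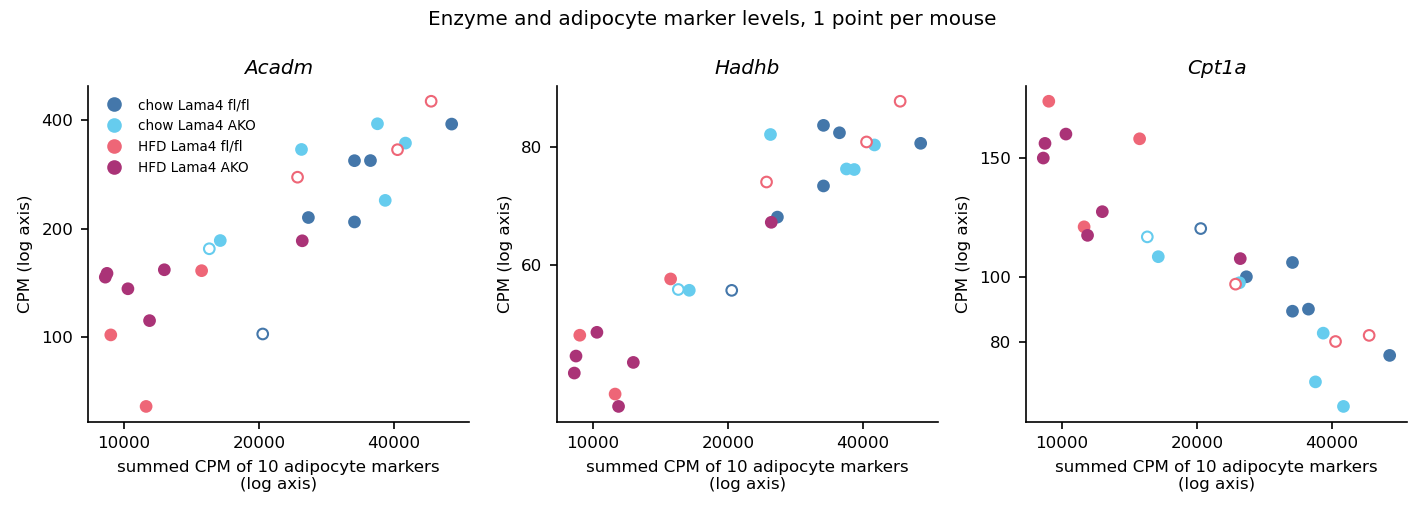
CPM of *Acadm*, *Hadhb* and *Cpt1a* against the summed CPM of 10 adipocyte markers in each mouse (both axes log scale), with groups by colour and the 5 libraries left out of the 19-library set as open circles. Of the 6 HFD-fed *Lama4* fl/fl mice, the 3 with sums from 24400 up had 73.4 to 89.4 CPM of *Hadhb* and 80.3 to 97.6 of *Cpt1a*, and the 3 with sums up to 14900 had 43.8 to 58 and 119 to 182.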

How the data were processed

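QuantSeq 3′ libraries of whole epididymal fat from 24 mice, 6 per group by the labels, were analysed. Read processing by the authors was Lexogen's QuantSeq pipeline, run on Bluebee (the methods also name Rsubread for the count matrices), and raw counts per gene were deposited, and the deposited table keeps genes with at least 72 counts in all. They also deposited a normalized signal, in which each library's counts are divided by its size factor, used here for gene symbols and positions (GRCm38) only. The submitters' processing notes name R 4.0.3 and DESeq2 1.30. An aligner version and whether counting used strand are not given in the sources used here.

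The 15020 genes that reached 1 CPM in 3 or more libraries were fitted with edgeR 4.0.16 in R 4.3.3 (TMM, quasi-likelihood test, 1 coefficient per group, all 24 libraries), with Benjamini-Hochberg adjustment over all genes tested. Calls used the study's thresholds, which it applied to limma-voom after removing outliers: a fold of 1.5 or more, an unadjusted p no higher than 0.001 and 2 CPM or more on average in the higher group. Standard errors are those of the log2 fold changes, and log2 CPM used a prior count of 2. The alternatives were limma-voom (limma 3.58.1), DESeq2 1.42.0, RLE size factors, no low-count filter, a replicate block, fits of only the groups compared, other call rules, each library left out, and the 19 libraries, alone and with limma-voom. Leaving out each of the 19 in turn was chosen after seeing the data. Those sets share the choice of libraries by expression and are no check of it. The fits were tested on simulated data.

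Depth ran from 5579590 to 18764516 counts per library and no enzyme was at 0 in any library. Within groups, 60 pairs of libraries had r of 0.859 to 0.984 and differed beyond sampling noise (chi-square per degree of freedom at least 6.07). Columns not mapped to a sample numbered 0.

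The 8 enzymes were named in every comparison. From each list, all called genes were named up to 4, otherwise the 4 with the lowest p, and with none called the 3 with the lowest p between diets over both genotypes, with the 5 closest profiles and *Lama4*. *Acadsb*, *Eci1*, *Acsl3*, *Scp2* and *Ppard* were named after their values were seen, and other calls in single genotypes of the 19 libraries are given for the 8 enzymes only. Members and lists were chosen with earlier results of these data known.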

Additional observations from a re-analysis of the deposited data

Results flagged for a closer look

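The spread of log2 CPM was examined in 32 sets of 6 mice, 1 for each enzyme and group. On that scale 2 sets held a mouse that lay apart from the other 5 by more than Dixon's 95% critical value allows, and chance alone marks about 1 in 20 such sets. *Etfdh* in HFD-fed *Lama4* fl/fl replicate 2 was 7.37 CPM, and in log2 CPM its gap to the next mouse was 0.649 of the group's range. *Etfdh* in HFD-fed *Lama4* AKO replicate 3 was 22.1 CPM, with a gap of 0.648 of the range in log2 CPM.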

How the results depend on the processing

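None of the 8 enzymes was called with all 24 libraries in any of the 6 comparisons, and this count was also 0 with limma-voom, DESeq2, RLE size factors, no low-count filter, no fold criterion and every 1 of 24 libraries left out. Without the 5 libraries edgeR and limma-voom each called 2 enzymes between diets in *Lama4* fl/fl mice, 2 in *Lama4* AKO mice and 3 over both genotypes, and the cause was not tested. Of all genes, edgeR called 11.8%, 15.7% and 21.2% and limma-voom 12.4%, 15.9% and 21.5%. The enzymes were the same except in *Lama4* fl/fl mice, where limma-voom called *Hadhb* (-0.62) and did not call *Cpt1a* (0.73, adjusted p = 0.00955). In *Lama4* AKO mice 1 enzyme was called when only the groups compared were fitted (*Acadm*), beside 9.31% of all genes, and 1 when an adjusted p of at most 0.05 replaced the nominal one (*Cpt1a*), beside 16.1%. Among the 19 libraries, leaving out 1 more gave 1 to 3 enzymes in *Lama4* fl/fl mice, 0 to 3 in *Lama4* AKO mice, 2 to 3 over both genotypes, 0 to 2 between genotypes on HFD, and 0 on chow and for the interaction.

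The following log2 fold changes turned sign without the 5 libraries, given for edgeR and then limma-voom. For diet in *Lama4* fl/fl mice *Etfdh* was -0.81 and -1.04, and -0.16 by limma-voom with all 24. Between genotypes on HFD *Cpt1a* was -0.17 and -0.17, *Hadha* 0.14 and 0.29 (0.00085 by limma-voom with all 24), *Etfdh* 0.46 and 0.69, and *Acadm* 0.47 and 0.54. Between genotypes on chow *Hadha* was -0.054 and -0.057 and *Cpt2* 0.0086 and 0.045, and *Acadvl* turned by limma-voom alone, at 0.012. For the interaction *Cpt1a* was -0.049 and -0.028, *Hadha* 0.20 and 0.34, *Etfdh* 0.41 and 0.68, *Hadhb* 0.050 and 0.051, and *Acadm* 0.41 and 0.50. The cause was not tested, and none of these values was called.

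Leaving out 1 of the 24 libraries turned the sign of further uncalled values. For diet in *Lama4* fl/fl mice the ranges were -0.19 to 0.035 for *Acadvl*, -0.12 to 0.25 for *Etfdh* and -0.46 to 0.041 for *Acadm*. Between genotypes on HFD *Hadha* ran from -0.21 to 0.070. On chow *Acadvl* ran from -0.12 to 0.062, *Hadha* from -0.065 to 0.051, *Etfdh* from -0.030 to 0.20, *Cpt2* from -0.22 to 0.0044, *Hadhb* from -0.12 to 0.015 and *Acadm* from -0.041 to 0.28. For the interaction *Hadha* ran from -0.22 to 0.069 and *Acadl* from -0.23 to 0.014.

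With the replicate number as a block, 0 enzymes were called in all 6 comparisons, *Etfdh* for diet in *Lama4* fl/fl mice was -0.042 and *Hadha* between genotypes on chow -0.0041. The labels do not say that the numbers pair mice. Over 36 pairs of the same number in different groups, the correlation of deviations from the group means ran from -0.534 to 0.714, and 15 were over 0.1. Pairs of different numbers were not set beside them, so a pairing was not tested.

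Counts over all genes were larger with DESeq2: 59, 1315 and 619 called between diets in *Lama4* fl/fl mice, in *Lama4* AKO mice and over both genotypes, 81 and 41 between genotypes on HFD and chow, and 148 for the interaction, against 26, 619, 334, 26, 17 and 58 with edgeR and 19, 457, 251, 19, 10 and 32 with the replicate block. A *Lama4* fl/fl HFD group of 3 mice in the 19-library set limits what its comparisons can show.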

Other observations

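Other cell types of the pad were followed through marker lists, compared between diets in *Lama4* AKO mice with all 24 libraries by edgeR. Among 7 adipocyte progenitor and fibroblast markers *Pdgfra* was higher (0.69 ± 0.18, adjusted p = 0.021), and 6 of the 7 had log2 fold changes above 0 (median 0.63). Among 5 mesothelial markers *Msln* was lower (-2.36 ± 0.60, adjusted p = 0.0188), and 4 of the 5 lay below 0. None of the 6 endothelial, 7 T cell, 6 B cell, 6 brown and beige or 5 red blood cell markers was called, beside 4.12% of all genes. Of them 5, 0, 0, 1 and 0 had an unadjusted p under 0.05, beside 39.8% of all genes. The median of the endothelial markers was -0.60 and that of the B cell markers 1.03. Of 9 skeletal muscle markers 6 were in the table, summing to 9.19 to 77.8 CPM over all mice, and *Ckm*, *Myh1* and *Myh4* were not analysed here. Of 7 epididymis and testis markers 2 were in the table, summing to 0.0673 to 15.1 CPM. No marker in the table was at 0 in all mice.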
